A study of Mus musculus with 4 samples.

Results

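Expression of 10 genes that report on or restrain the Erk pathway is described here: the feedback inhibitors Spry1, Spry2, Spry4, Spred1, Dusp4, Dusp5 and Dusp6, and the response factors Etv4, Etv5 and Egr1. They were chosen by name, for their known place in the pathway, but with earlier results of these data known. Of these 10 genes, 9 had a matched probe on the array and all 9 passed the filter on dim signal, out of 19171 genes tested. They were read by 13 probes, each well above background on all 4 arrays. No probe was matched to Dusp5, a nuclear Erk phosphatase, so it has no value here.

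Expression was measured in mouse embryonic fibroblasts null for p53, 5 days after genes were introduced by retrovirus, in medium with serum. One group of 2 arrays received OSK, which in this field stands for Oct4 (Pou5f1), Sox2 and Klf4, and the other group of 2 arrays received OSK and Glis1, a Gli-similar zinc finger factor. By the labels all 4 samples lacked p53 and all received OSK, so the comparison bears on neither. The names of the scanner tables carry the number 5 for replicate 1 and 3 for replicate 2 of both groups, while every label gives day 5, and what that number stands for is not known. The labels call the OSK cells embryonic fibroblasts and the OSK+Glis1 cells induced pluripotent cells made from them. Whether the 2 samples of each group were grown or transduced separately is not in the labels, so a p-value here reflects only how far these samples lay apart, which can be technical.

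Growth factors that bind receptor tyrosine kinases switch on Ras, which passes the signal through Raf and Mek to the kinase Erk. Erk then drives transcription of immediate early genes such as Egr1, of Ets factors such as Etv4 and Etv5, and of its own inhibitors. Sprouty and Spred proteins act near the receptor and Ras, and dual-specificity phosphatases remove the activating phosphates from Erk or other MAP kinases. Because these inhibitors are themselves Erk-induced, their transcripts are widely used as a readout of the pathway. In mouse pluripotent cells Fgf and Erk signalling is known for promoting the exit from self-renewal.

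The 4 arrays had 59.9% to 65.2% of spots well above background and no saturated spot. Correlations between arrays across genes, which are not independent replicates, were 0.987 and 0.989 within the groups and 0.935 to 0.945 between them. Of 8 fibroblast markers all were measured and 2 passed the test: Thy1 (3.43-fold) and Col1a1 (3.27-fold) fell with Glis1. Prrx1 (-0.92 log2 units), Col3a1 (-0.87), Twist1 (-0.76), S100a4 (-0.21), Vim (-0.12) and Col1a2 (0.16) did not pass it. Of 8 pluripotency markers 7 were tested and 3 rose with Glis1. Pou5f1 (11.2-fold, with 1 of 2 OSK arrays well above background), Esrrb (at least 11.8-fold) and Dppa3 (at least 2.53-fold) rose. Pou5f1 is also one of the OSK factors, and whether its probe reads the introduced gene is not known. Of the others, Tdgf1 differed by 0.84 log2 units, Utf1 by -0.01, Dppa5a by -1.06 and Zfp42 by -1.68, none past the test, and Nanog had no matched probe. The calls of Pou5f1, Esrrb, Dppa3 and Col1a1 were lost without either OSK array (Pou5f1 was then 4.09 and 2.88 log2 units higher, against 3.49), and that of Thy1 was kept without any 1 array. The probe named Glis1 differed by -0.21 log2 units (limma adjusted p = 0.598), and Sox2 was not well above background on either OSK array, so neither probe bore out the labels. Klf4, also an OSK factor, was well above background on all 4 arrays and differed by 0.14 log2 units (limma adjusted p = 0.812). Every direction below refers to the groups as labelled. Among markers of other cell types, 4 of 6 epithelial, 1 of 5 leukocyte and 2 of 4 endothelial genes were tested, and only Kdr, an endothelial receptor, passed the test (4.84-fold higher, a call lost without OSK replicate 1 or OSK+Glis1 replicate 2). Of the epithelial markers, Krt8 (-1.97 log2 units), Epcam (-1.64), Krt18 (0.27) and Cdh1 (0.03) did not pass the test. Neither did the endothelial Tek (-0.85) or the leukocyte Cd14 (0.56). The part of these markers in the results below was not tested.

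Spred1 and Spry2 rose in OSK+Glis1 cells and no member fell by the test. Spred1 was 2.57-fold and Spry2 1.77-fold higher than in OSK cells. Thus 2 of 9 members passed the limma test at an adjusted p of 0.05, or 22.2%, against 14.2% of all genes (6.05% higher and 8.17% lower). The 4 samples of 8 members fell into groups without overlap, 5 of them higher and 3 lower with Glis1, against 59.9% of all genes (33.4% higher and 26.6% lower). In all, 7 of 9 members had an unadjusted p below 0.05, against 5605 of 19171 genes. After adjustment 2 of the 7 stayed below it. The median log2 difference of the 9 members was 0.33, against 0.05 over all genes. A lower signal in this bulk RNA can come from fewer cells of a type or from less RNA per cell, which cannot be told apart. Both calls were lost when any 1 of the 4 arrays was left out: the adjusted p was then 0.0511 to 0.0842 for Spred1 and 0.115 to 0.211 for Spry2. They were also lost under normexp background correction, which left 0 of 19171 genes called (1411 at unadjusted p below 0.05), and without the filter on dim probes.

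**Figure D1:**
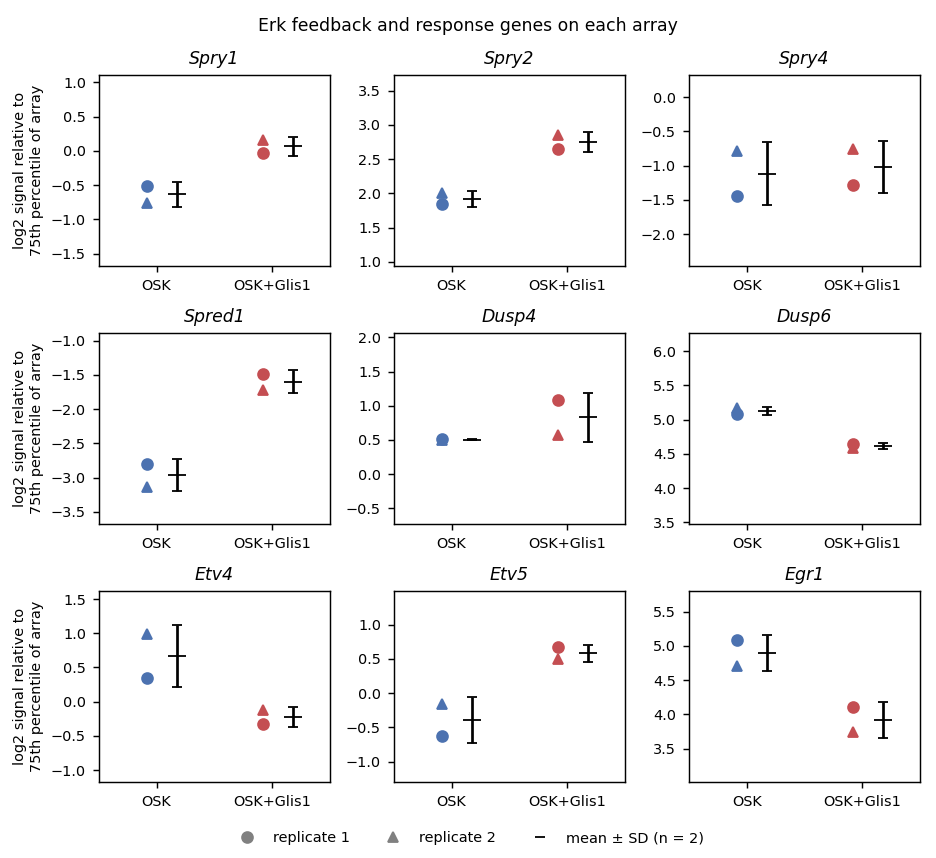
Log2 signal of each of the 9 members on each of the 4 arrays, relative to the 75th percentile of the array, with OSK and OSK+Glis1 arrays in separate colours, circles for replicate 1, triangles for replicate 2 and bars for the group mean ± SD (n = 2). For Spred1 both OSK+Glis1 arrays lie above both OSK arrays, and for Dusp6, Etv4 and Egr1 they lie below.

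The promoter regions of Spred1, Spry2 and Dusp6 are shown because the first pair are the members that rose and Dusp6, which did not pass the test, lay lower with Glis1. The sequences are the 250 bases upstream of each start in RefSeq on build GRCm38.p6, written 5′ to 3′ on the strand of the gene. Capitals mark GC boxes, the Sp and Klf motif GGGCGG or its reverse complement. Spred1 lies at chr2:117120821-117121070 on the plus strand, Spry2 at chr14:105896820-105897069 on the minus strand and Dusp6 at chr10:99262981-99263230 on the plus strand.
Spred1: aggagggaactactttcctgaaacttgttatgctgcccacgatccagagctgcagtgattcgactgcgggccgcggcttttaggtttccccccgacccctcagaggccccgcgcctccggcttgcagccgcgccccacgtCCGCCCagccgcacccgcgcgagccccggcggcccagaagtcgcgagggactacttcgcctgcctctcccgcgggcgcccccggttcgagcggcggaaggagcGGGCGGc
Spry2: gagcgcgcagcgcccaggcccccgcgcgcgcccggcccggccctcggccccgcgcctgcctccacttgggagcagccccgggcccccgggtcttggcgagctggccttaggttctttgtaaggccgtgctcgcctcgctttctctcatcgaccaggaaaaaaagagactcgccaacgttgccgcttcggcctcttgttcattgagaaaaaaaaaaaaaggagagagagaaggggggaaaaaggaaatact
Dusp6: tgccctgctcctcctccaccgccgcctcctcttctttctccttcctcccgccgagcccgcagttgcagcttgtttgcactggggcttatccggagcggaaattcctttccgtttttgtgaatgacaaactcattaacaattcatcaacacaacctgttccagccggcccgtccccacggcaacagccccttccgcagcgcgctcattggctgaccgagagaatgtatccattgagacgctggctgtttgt
The Spred1 promoter holds 2 GC boxes, and the Spry2 and Dusp6 promoters hold no match to any of 6 motifs searched on both strands. These were CCGGAAG (Ets), TGANTCA (AP-1), GGGCGG, ATGCAAAT (octamer), TGGGGGGT (Glis type) and the CArG box of SRF. A GC box was present in 32.7% of 32851 RefSeq promoters of this length, the Ets motif in 6.91%, the AP-1 motif in 6.75%, the octamer in 1.60%, the Glis-type motif in 1.36% and the CArG box in 1.47%. Of the 10 members 6 had an entry that is used here, and Etv5 held 3 GC boxes and Spry1 held 1. The promoter of Dusp5, which has no array value, held 1 GC box and matches to the CArG box. GC content was 70.8% for Spred1, 62.4% for Spry2 and 56.4% for Dusp6, against a median of 52.4% over all promoters. A match is a stretch of letters and no test of binding.

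Spred1, a membrane protein that recruits neurofibromin to restrain Ras, had log2 values of -2.80 and -3.13 on the OSK arrays and -1.48 and -1.72 on the OSK+Glis1 arrays, relative to the 75th percentile of each array. Its raw intensities were 136 and 76.3 units with OSK and 302 and 288 units with Glis1. The groups did not overlap. The log2 difference was 1.36 ± 0.21 (SE, n = 2 and 2), with a 95% confidence interval of 0.83 to 1.90 and a limma adjusted p of 0.0173. Its larger gap between replicates was 0.33. A dimmer Spred1 probe read -4.21 and -4.41 with OSK and -2.59 and -2.91 with Glis1, a difference of 1.56 ± 0.20 (SE), and passed the test over probes, in which 13.4% of 25874 probes passed (adjusted p = 0.0115). Both Spred1 probes therefore read in one direction. Its relative Spred2 differed by 0.11 log2 units (adjusted p = 0.753) and Spred3 by -0.72 (adjusted p = 0.0545).

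Spry2, a Sprouty inhibitor of signalling downstream of receptor tyrosine kinases, read 1.84 and 2.00 with OSK and 2.65 and 2.85 with Glis1. Its raw intensities were 3404 and 2685 units with OSK and 5293 and 6828 units with Glis1. Both Glis1 arrays were above both OSK arrays. The log2 difference was 0.83 ± 0.18 (SE, n = 2 and 2), with an interval of 0.36 to 1.29 and a limma adjusted p of 0.0477. A dimmer Spry2 probe also did not overlap, with -2.25 and -1.95 against -1.76 and -1.55, but its difference of 0.44 ± 0.20 missed the threshold (adjusted p over probes = 0.233). Averaging both Spry2 probes gave 0.63 (adjusted p = 0.101), and the call was lost.

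Spry1, another Sprouty inhibitor, read -0.51 and -0.76 with OSK and -0.03 and 0.16 with Glis1, again without overlap. Its difference was 0.70 ± 0.19 (SE, n = 2 and 2), with an interval of 0.20 to 1.19, and it missed the threshold (limma adjusted p = 0.0816). Spry4, a further Sprouty protein, had 2 probes that did not move together. Its brighter probe read -1.44 and -0.79 with OSK and -1.28 and -0.76 with Glis1, so the groups overlapped, and the difference was 0.10 ± 0.31 with an interval of -0.72 to 0.91 (adjusted p = 0.877). The dimmer Spry4 probe read -3.82 and -3.72 against -4.54 and -4.58 and was lower with Glis1 by the test over probes (difference -0.79 ± 0.16 SE, adjusted p = 0.0432). The estimates of the 2 Spry4 probes have opposite signs, and the rule of taking the brightest probe sets the value of the gene. Averaging them turned the sign to -0.35.

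**Figure D2:**
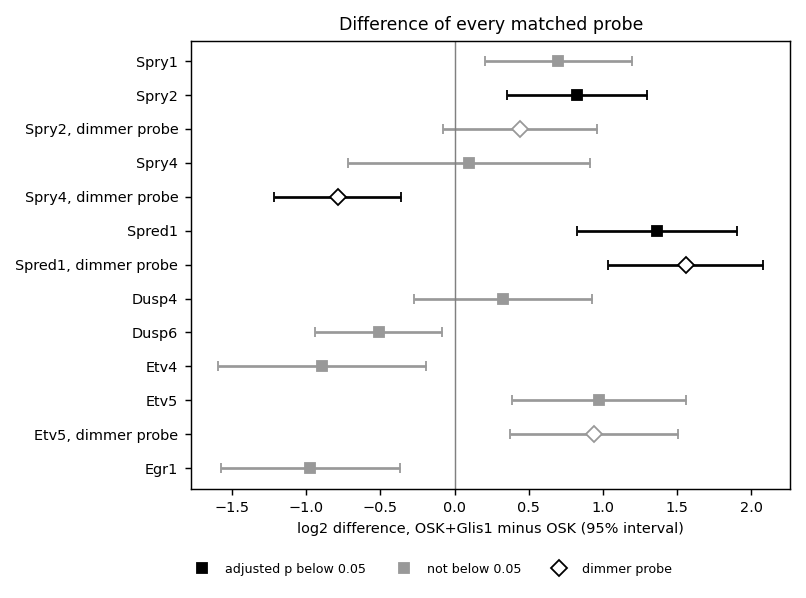
Log2 difference of OSK+Glis1 minus OSK for each of the 13 probes of the 9 members, with 95% confidence intervals from limma, black where the adjusted p is below 0.05 and diamonds for dimmer probes. Both probes of Spred1 and of Etv5 lie above 0, while the dimmer probe of Spry4 lies below 0 and its brighter probe spans it.

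The phosphatases among the tested members, Dusp6 and Dusp4, did not pass the test. Dusp6, a cytoplasmic phosphatase with preference for Erk, read 5.08 and 5.17 with OSK and 4.64 and 4.58 with Glis1. Its raw intensities were 32221 and 24072 units with OSK and 21106 and 22746 units with Glis1. Both OSK values were higher on either scale, and replicates differed by at most 0.09 log2 units. The difference was -0.51 ± 0.16 (SE, n = 2 and 2), with an interval of -0.94 to -0.09 and a limma adjusted p of 0.117. Dusp4, a nuclear MAP kinase phosphatase, read 0.51 and 0.50 with OSK and 1.09 and 0.58 with Glis1. Its difference of 0.33 ± 0.23 was smaller than the gap of 0.51 between its Glis1 arrays (adjusted p = 0.423, interval -0.27 to 0.92). The test of the difference between Spry2 and Dusp6, 1.34 log2 units apart in their response, could not pass any threshold (exact permutation test, two-sided p = 0.333, which is the smallest p that 2 arrays against 2 allow).

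The related factors Etv4 and Etv5, Ets proteins of one subfamily that Fgf signalling induces, lay on opposite sides of 0. Etv5 read -0.62 and -0.16 with OSK and 0.67 and 0.50 with Glis1. Its groups did not overlap, and the difference of 0.97 ± 0.23 (SE, n = 2 and 2; interval 0.39 to 1.56) missed the threshold (limma adjusted p = 0.0556). A dimmer Etv5 probe gave 0.94 ± 0.22. Etv4 read 0.35 and 0.99 with OSK and -0.33 and -0.13 with Glis1, without overlap. The Etv4 difference was -0.90 ± 0.27, with an interval of -1.60 to -0.19 (adjusted p = 0.103). The difference of Etv5 minus Etv4 was 1.87 log2 units, and its exact two-sided permutation p was 0.333, again the smallest possible. The same held for Spred1 minus Spred2, at 1.25 log2 units, and with 3 such pairs compared the adjusted p was 0.333 for each.

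Egr1, an immediate early zinc finger factor, read 5.08 and 4.71 with OSK and 4.10 and 3.74 with Glis1. Its raw intensities were 32183 and 17484 units with OSK and 14498 and 12662 units with Glis1. Both OSK arrays were above both Glis1 arrays. The difference was -0.97 ± 0.23 (SE, n = 2 and 2), with an interval of -1.58 to -0.37 and a limma adjusted p of 0.0592. Its relative Egr2 fell with Glis1 by the limma test (log2 difference -2.38 ± 0.40 SE, adjusted p = 0.0223). Egr3 was not well above background on both arrays of either group and was not tested.

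The remaining genes of the pathway were taken from 4 lists, and the shares called below stand beside 14.2% of all genes. The receptors and ligands held the largest share of these lists. Of 24 tested receptors and ligands 6 rose and 4 fell with Glis1 (41.7% called, median difference 0.20). Fgfr3, an Fgf receptor, rose 7.09-fold, and Fgf18, an Fgf ligand, rose 6.61-fold. Pdgfra, a Pdgf receptor, rose 6.18-fold. Egfr, the Egf receptor, fell 6.16-fold, and each of its 4 probes read lower. Its ligands Areg (7.26-fold, with 1 of 2 Glis1 arrays well above background) and Ereg (at least 6.17-fold) fell too. The Egfr ligands did not move one way: Tgfa rose 3.29-fold, and Hbegf was 2.05 log2 units higher without passing the test (adjusted p = 0.0678), both named here after their values were seen. Fgfr1 (difference -0.83, adjusted p = 0.0544) and Fgfr2 (1.59, adjusted p = 0.0518) missed the threshold. The 10 calls became 6 when either OSK array, or replicate 1 of the Glis1 group, was left out. The calls of Pdgfra (adjusted p = 0.118, 0.187 and 0.0644) were lost in these 3 cases, and its difference of 2.63 became 1.90 without that Glis1 array. Fgfr3 lost its call without OSK replicate 1, Areg without either OSK array and Tgfa without OSK+Glis1 replicate 1, while Fgf18, Egfr and Ereg kept theirs without any 1 array.

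In the kinase cascade, from Ras activators to Erk and its kinase targets, none of 24 tested genes rose and 2 fell (8.33% called, against 14.2% of all genes, median difference 0.14). Rasgrp1, an exchange factor for Ras, fell 3.43-fold, and Rps6ka3, a kinase that Erk activates, fell 2.12-fold. A dimmer Rasgrp1 probe differed by -0.60 log2 units, against -1.78 for the probe used. Mapk3, which encodes an Erk kinase, differed by -0.27 (adjusted p = 0.348). Map2k1 and Map2k2, which encode Mek, differed by 0.35 and 0.09 (adjusted p = 0.243 and 0.825). Without replicate 1 of either group 0 cascade genes were called, without OSK replicate 2 the 1 call was a rise and both falls were lost, and without OSK+Glis1 replicate 2 the 1 call was Rasgrp1. Under median centring and with the deposited values 2 cascade genes were called higher and 1 lower.

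Among 18 other tested feedback genes 2 rose and 1 fell (16.7% called, median difference -0.33). Il17rd, a membrane inhibitor of Fgf signalling, rose 4.08-fold, Dusp2 rose 4.32-fold and Dusp14 fell 2.67-fold, the latter pair being dual-specificity phosphatases. A dimmer Il17rd probe differed by 1.02 log2 units, against 2.03 for the probe used. Dusp1, an immediate early phosphatase, differed by -0.20 (adjusted p = 0.783). Dusp14 lost its call without OSK replicate 2 (adjusted p = 0.0523). Of 27 other tested response genes 1 rose and 4 fell (18.5% called, median difference -0.39). Epha4, an ephrin receptor, rose 3.98-fold, while Egr2, Myc (3.84-fold), Ets2 (2.08-fold) and Elk3 (1.78-fold) fell. Fos, Fosl1 and Etv1 differed by -0.05, -0.39 and -0.07 without passing the test (adjusted p = 0.944, 0.505 and 0.848), and Ccnd1 had no matched probe. Without OSK replicate 1, and likewise without OSK replicate 2, all 4 falls lost their call and 1 rise, that of Epha4, was kept.

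**Figure D3:**
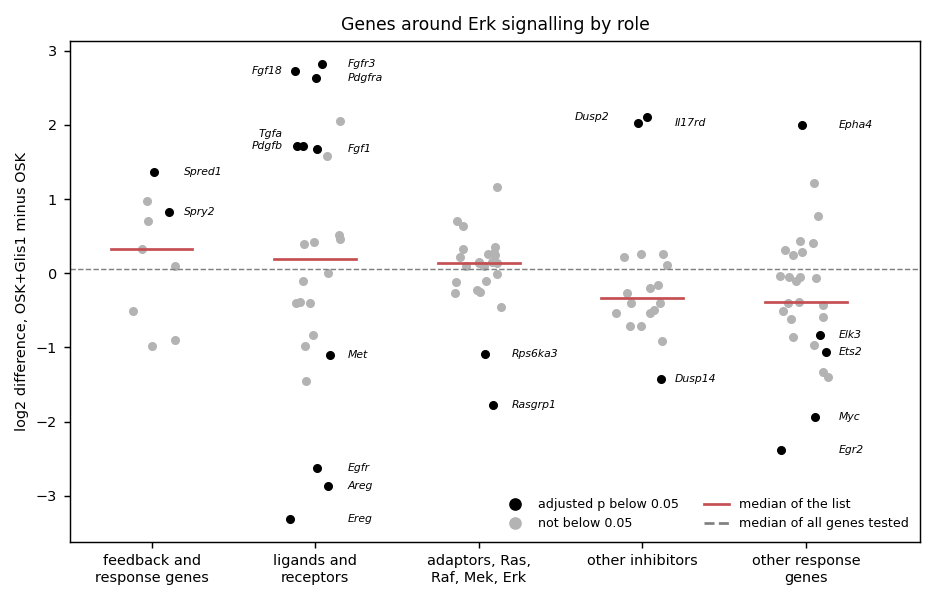
Log2 difference of OSK+Glis1 minus OSK for every tested gene of the member list and of the 4 pathway lists, one point per gene, black and named where the limma adjusted p is below 0.05, with the median of each list as a red line and that of all genes as a dashed line. The receptors and ligands spread widest, from -3.31 to 2.83, and the members lie between -0.97 and 1.36.

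The genes whose profile over the 4 arrays lay nearest to those of the called members were found among 12585 named genes well above background on all 4 arrays, by the Euclidean distance of centred log2 values. For Spred1 they were Tnfaip8 (distance 0.05), Irx5 (0.13) and Stxbp4 (0.13), which differed by 1.39, 1.25 and 1.28. For Spry2 they were Nek4 (0.04), H1f10 (0.06) and Fastkd3 (0.06), which differed by 0.83, 0.79 and 0.86. H1f10 missed the threshold (limma adjusted p = 0.051) and the other 5 genes passed it. The distances rest on 4 arrays and are a description. The genes were picked for profiles close to those of the members, so their similar differences and p-values follow from that choice.

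Of 9 members 3 were higher in replicate 1 than in replicate 2 in both groups, 3 were lower in both and 3 went opposite ways. Over all 19171 genes these counts were 4771, 4544 and 9856. Egr1 was higher in replicate 1 than in replicate 2 in both groups, by 0.37 log2 units with OSK and 0.36 with Glis1, and so were Spred1 (0.33 and 0.24) and Dusp4 (0.01 and 0.51). Spry4 was lower in replicate 1 in both groups, with values of -0.65 and -0.53, and Spry2 and Etv4 were lower too. Spry1, Etv5 and Dusp6 went opposite ways in the 2 groups. The difference between the groups was larger than both replicate gaps in Spry1, Spry2, Spred1, Dusp6, Etv4, Etv5 and Egr1. It was smaller than the larger gap in Spry4 and Dusp4. How many of all genes exceed both gaps was not counted, so this does not set the members apart, and 59.9% of all genes had groups without overlap.

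**Figure D4:**
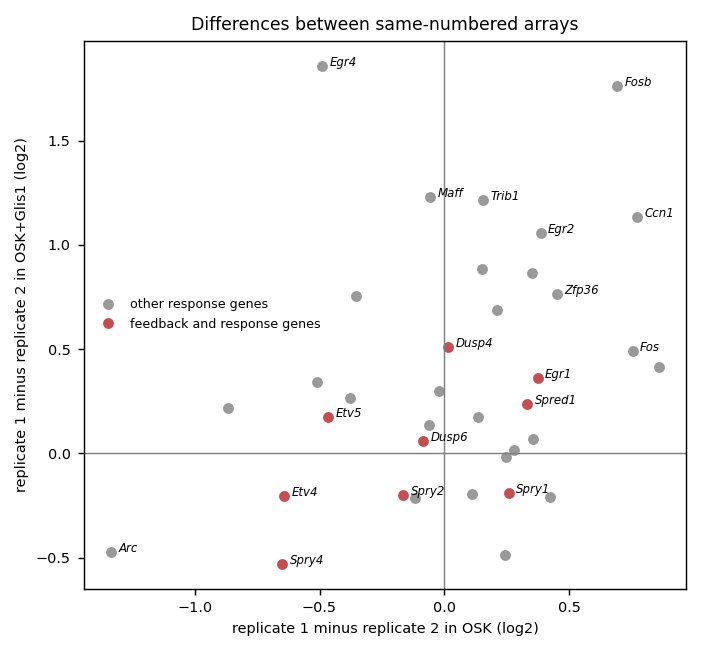
Log2 value of replicate 1 minus replicate 2 in the OSK group (x axis) and in the OSK+Glis1 group (y axis), one point per gene, with the 9 members in red and 27 other response genes in grey. Egr1, Spred1 and Dusp4 lie above 0 on both axes, and Spry2, Spry4 and Etv4 lie below 0 on both.

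The sign of the member differences held under most processing choices. Of 9 members 8 kept their sign under all 14 alternatives, and Spry4 kept it under 10. Several alternatives could not turn a sign. The other filters, the trend and robust variance and the replicate block left every member estimate unchanged. Leaving out 1 array cannot turn the sign of a gene whose groups do not overlap, as in these 8. Median centring of the arrays moved the median difference over all genes from 0.05 to 0.19 and the calls from 1160 higher and 1566 lower to 1585 higher and 1404 lower. With the log2 values in the authors' deposited table the median was 0.21, with 1644 higher and 1377 lower. Spry1 then passed the test under both.

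**Figure D5:**
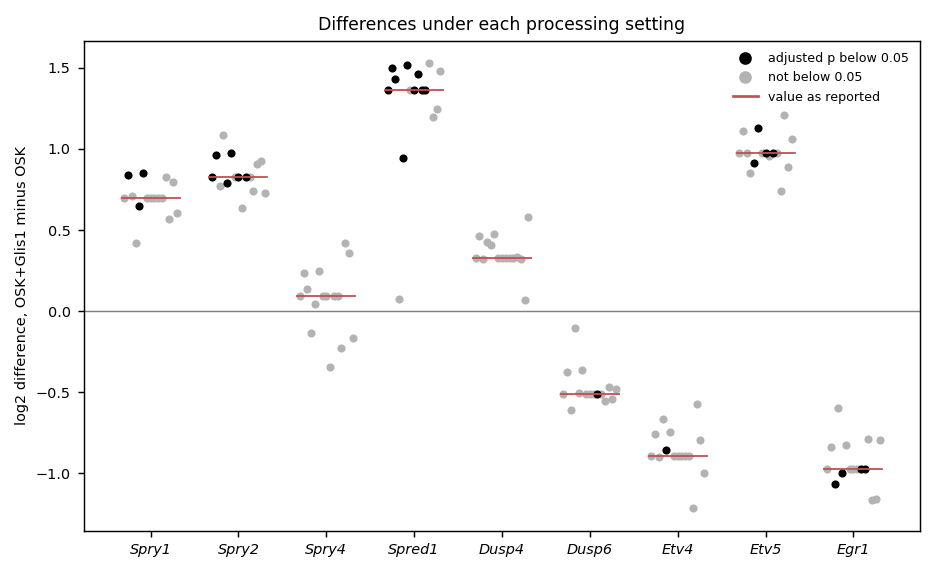
Log2 difference of OSK+Glis1 minus OSK of each member under the main setting and the 14 alternatives, one point per setting, black where the adjusted p is below 0.05. Among the members Spry4 alone has points on both sides of 0, and Spred1 has 1 point at 0.076, under normexp background correction.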

How the data were processed

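Cy3-labelled total RNA of 4 samples was read on one-colour Agilent arrays, per the labels. The authors deposited 1 scanner table per array of intensity values from Feature Extraction 10.7.3.1, which the scanner software had background-subtracted but not scaled across arrays, per the file headers. The tool behind a second deposited table, of log2 values, is unknown. Compared with the scanner values, each column is log2 signal minus the array median: 99.7% to 99.8% of probes lay within 0.01 of 1 constant per array, the column medians were 3.1e-06, -0.00016, 0.000216 and 4.8e-05, and its direction is that of the labels.

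An array had 43379 spots, controls aside, for 41174 probes, and the 75th percentiles of signal were 951 and 669 (OSK) and 844 and 949 (OSK+Glis1) intensity units. The number of arrays limits the precision. Control spots and outlier spots were left out, 71 probes that lost all spots on some array were dropped, and log2 signal minus the 75th percentile was used. The filter kept probes that both arrays of 1 group or more read well above background. A gene was its brightest such probe. Symbols came from RefSeq (GRCm38.p6) by accession for 26933 probes, and the array annotation names another build, mm9. Where a group was not well above background, the fold is "at least" the mean of the bright group over, per dim array, the probe's own signal or the lowest signal well above background, whichever was higher.

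Groups from the labels were compared with limma 3.58.1 in R 4.3.3 (lmFit, eBayes, two-sided), adjusted by Benjamini-Hochberg over 19171 genes, with 2 residual and 2.82 prior degrees of freedom. SE and 95% intervals are limma's. The steps were tested on simulated data. All arrays lay on 1 slide, so no slide block was possible. The tables lack the mean spot signal, so normexp (offset 50) used the median signal. Other settings were tried (other scalings, backgrounds, filters, probe rules, variances, replicate block, each array left out). Members and lists were chosen with earlier results of these data known. Named genes were the members, up to 5 non-overlapping called genes per list by size, a fixed set of central pathway genes (1 of them not reported here by name), the 3 nearest profiles to the 2 called members, and markers.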

Additional observations from a re-analysis of the deposited data

How the results depend on the processing

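Of 9 members, 8 kept their direction under all 14 alternatives, several of which could not turn it. The limma calls were less stable. Of 2726 genes past the threshold, normexp background correction left 0 (1411 at unadjusted p below 0.05) and testing without a filter on dim probes left 1504. For the members the count of 2 became 0 under normexp, 0 with no filter (6 at unadjusted p below 0.05) and 1 with the mean of the probes. It became 4 with the deposited values, 5 with a trend and robust variance and 6 with normexp after replacing flagged backgrounds. Over all genes, 3021 passed with the deposited values, 3359 with the trend and 3020 with flagged backgrounds replaced. Leaving out 1 array gave 1219 to 1879 genes, and 0 members called in each case (4 to 7 at unadjusted p below 0.05). The receptor and ligand count of 10 went to 0 under normexp and to 6 to 10 without 1 array. The cascade count of 2 went to 0 under normexp and with no filter, to 4 with the trend, and to 0 to 1 without 1 array. The other feedback count of 3 went to 0 under normexp. The response count of 5 went to 0 under normexp, 2 with no filter, 8 with flagged backgrounds replaced, and 1 to 5 without 1 array. The cause of each was not tested.

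Spry1 passed the test under median centring (0.84), flagged backgrounds replaced (0.65) and the deposited values (0.85). Spry2 lost its call under quantile normalization (0.77), normexp (1.08), no filter (0.83), the mean of probes (0.63), and without 1 array (0.73 to 0.92). Spred1 lost it under normexp (0.076), no filter (1.36) and without 1 array (1.20 to 1.53). Spry4 turned negative under normexp (-0.13) and the mean of probes (-0.35), and ranged from -0.23 to 0.42 without 1 array. Dusp6 passed with the trend (-0.51) and Etv4 with flagged backgrounds replaced (-0.86). Etv5 passed with flagged backgrounds replaced (0.91), the deposited values (1.13), the filter on all arrays (0.97) and the trend (0.97). Egr1 passed under quantile normalization (-1.07), flagged backgrounds replaced (-0.99) and the trend (-0.97).

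The labels number the samples 1 and 2 in both groups. The correlation of same-numbered deviations was 0.01 over 2 pairs and all genes. Taken over all genes it gives no ground to pair them, but it cannot exclude a shift shared by fewer genes. Whether same-numbered samples share anything beyond the numbers in labels and table names is not known. With the replicate block 2654 genes and 2 members passed. Spry2 lost its call in that block (0.83, adjusted p = 0.0694) and Egr1 gained one (-0.97, adjusted p = 0.0447).

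Signs also turned for genes beside the members, most of which had not passed the test. Under normexp, which moved the median over all genes to -0.24, these were Tgfa (-0.67), Fgf1 (-0.78), Dppa3 (-0.88), Mapk3 (0.092), Dusp1 (0.033), Spred2 (-0.79), Etv1 (0.23), Fos (0.18) and Sox2 (-0.97). Under median centring and with the deposited values Etv1 was 0.069 and 0.084, and Fos 0.090 and 0.11. Without 1 array in turn the values ran from -0.14 to 0.33 for Map2k2, -0.59 to 0.20 for Dusp1, -0.037 to 0.26 for Spred2, -0.21 to 0.070 for Etv1, -0.42 to 0.33 for Fos, -0.82 to 0.042 for Fosl1, -0.016 to 2.25 for Sox2, -0.25 to 0.52 for Klf4 and -0.43 to 0.020 for Glis1.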

Other observations

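Response genes of the pathway differed between the samples numbered 1 and 2. Of 27 response genes 13 (48.1%) were higher in replicate 1 than in replicate 2 in both groups and 2 were lower in both. Over all 19171 genes 24.9% were higher in replicate 1 in both and 4544 were lower in both. The other lists lay above that 24.9% too. Higher in both were 10 of 24 receptors and ligands (41.7%, with 3 lower in both) and 7 of 18 other feedback genes (38.9%, with 2 lower). So were 3 of 9 members (33.3%, with 3 lower) and 7 of 24 cascade genes (29.2%, with 6 lower). Fos was higher by 0.75 log2 units with OSK and 0.49 with Glis1, Egr2 by 0.38 and 1.06, and Ccn1, an immediate early matrix protein gene, by 0.77 and 1.14. Dusp1, of the feedback list, was higher by 0.79 and 0.71. These are values of 2 pairs of arrays chosen after they were seen, and were not tested. The table names carry the number 5 for replicate 1 and 3 for replicate 2 in both groups.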
